A study of Mus musculus with 6 samples.

Results

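Lung mesenchymal stromal cells (LMSCs) from tumour-bearing mice were compared between the adenoma stage (E-LMSCs, the study's A-LMSCs) and the metastatic stage (M-LMSCs), to describe the change over the full course of mammary tumour progression. Every gene with a mean of at least 1 FPKM (mapped fragments per kilobase of transcript, scaled to library depth) over the 4 libraries of these stages was taken, which kept 10251 of the 34745 listed genes. RNA-seq covered 6 libraries, 2 per stage, and the L-LMSC libraries of the intermediate, pre-metastatic stage (the study's PM-LMSCs) served only to estimate the spread between libraries and as side values. All mice carried the MMTV-PyMT transgene on an FVB background, in which the mammary tumour virus promoter directs the polyoma middle T oncoprotein to mammary epithelium. The labels give the mice as 6 to 7 weeks old for E-LMSCs, 9 to 10 weeks for L-LMSCs and 13 to 14 weeks for M-LMSCs, while the study's methods give other ages for the adenoma and pre-metastatic stages. Stage and age change together across these libraries, and none comes from tumour-free mice. The parts of stage and age in the differences below cannot be told apart. The cells were the CD45-negative, plastic-adherent fraction of lung, grown in DMEM with serum and taken at passage 3.

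Mesenchymal stromal cells of the lung hold up its matrix, feed growth factors to epithelium and vessels, and recruit immune cells through chemokines and complement. Stroma of organs that tumours seed is known to alter its matrix and its secreted proteins before and during outgrowth. Results are ordered by these roles: the cell cycle, secreted immune proteins, surface lineages, matrix, growth factors, metabolism and transcription factors.

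Depth, read from the spacing of the lowest values of genes with a single annotated transcript, was 20.8 and 17.5 in E-LMSCs and 16.5 and 16.6 in M-LMSCs (14.7 and 15.9 in L-LMSCs), in megafragments (M fragments). Values in pairs are those of replicate 1 and replicate 2, and in brackets a pair against a pair is E-LMSCs against M-LMSCs. Summed FPKM per library ranged from 258249 to 271408, of which the 10 leading genes held 9.45% to 10.3%. Markers of the labelled cell type were present in every library, and all 11 genes of the mesenchymal surface list were tested. Itgb1, the fibronectin receptor subunit, stood at 335 and 301 FPKM in E-LMSCs against 466 and 283 in M-LMSCs. Levels of Cd44 (12.7 and 14.1 against 14.9 and 12.7 FPKM), Pdgfra (9.11 and 9.67 against 8.6 and 9.5 FPKM) and nestin (Nes; 21 and 22.2 against 25 and 14.6 FPKM) were lower but clear at both stages. None of the 11 passed a test, and 5 had both M-LMSC libraries above both E-LMSC libraries (median log2 difference 0.22), with Ly6a (Sca-1) the highest at 0.61; 1 was called without M-LMSC replicate 1 and 2 without M-LMSC replicate 2. Ptprc, which encodes the CD45 used to sort the cells, stood at 0.0427 and 0.0254 FPKM in E-LMSCs against 0.0987 and 0.0492 in M-LMSCs. Markers of endothelium were low, with Pecam1 at 0.016 and 0.0191 FPKM in E-LMSCs against 0.0337 and 0.0134 in M-LMSCs, and the epithelial adhesion gene Epcam was listed at 0 in both E-LMSC libraries and at 0.326 and 0.473 FPKM in M-LMSCs. A value listed as 0 is not proof of absence, since the mitochondrial gene mt-Co2 was listed at 0 in every library.

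Over the full course the largest block of genes that fell was the machinery of cell division, from the mitotic kinase Plk1 (24.8 and 28.6 against 9.44 and 16 FPKM) to the replicative helicase subunit Mcm5 (25.8 and 32.6 against 10.4 and 17.5 FPKM). In a culture assay the paper found LMSCs of these stages alike in their capacity to proliferate. Transcript levels here do not measure the rate of division. Genes that rose included the acute-phase protein Saa3 (3.25 and 2.04 against 19.9 and 48.2 FPKM), complement C3, insulin-like growth factor binding proteins, basement membrane collagen, and markers of macrophages and of mesothelium. A small set was called without pairing as well: Wnt4, the cystine transporter gene Slc7a11, Cxadr and Ftl2-ps rose, and keratin gene Krt19, the cold shock domain gene Ybx3 and Gm20431 fell. Ribosomal, respiratory, cholesterol and stress-fibre genes held no or few calls.

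Differences are given on the scale of log2(FPKM + 1), M-LMSCs minus E-LMSCs, and were tested with limma, with Benjamini-Hochberg adjustment over the 10251 genes and an adjusted p under 0.05 as the threshold for a call. Without pairing, limma called 4 genes higher in M-LMSCs (0.039% of those tested) and 3 lower (0.0293%). With the replicate number as a block, called the paired fit here, limma called 230 genes higher (2.24%) and 165 lower (1.61%), all of the 7 unpaired calls among them. Both M-LMSC libraries lay above both E-LMSC libraries in 2790 genes (27.2%) and below both in 2498 (24.4%). The list counts below can be read against these shares. The higher share was 30% for interleukin-6 family signalling, 31.25% for interleukins and receptors and 32% for lysosomal genes. For BMP and activin genes it was 34.8% and for the FGF and NF-kB lists 35.7%. These are not far above 27.2%, and the difference was not tested. At an unadjusted p under 0.05 the unpaired fit held 796 genes higher and 713 lower. Rises were larger than falls: 94 genes were higher and 33 lower by at least 1 log2 unit, while the median difference over all tested genes was 0.03. With 2 libraries against 2, an exact permutation test of any single gene can reach no two-sided p below 0.333, so every call rests on the spread pooled across genes. The p-values measure spread between these samples, and the labels do not say that equally numbered replicates of different stages belong together. A single number in brackets after a gene is its log2 difference.

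The surplus of rises among paired calls, 58.2%, depended on scale: with each library centred on its median the share was 44.9% (196 higher, 241 lower), and the non-overlapping genes became 2162 higher and 3091 lower. Adjusting for GC content and gene length left 176 higher and 66 lower, with 211 of the paired calls kept. The paired count of 395 was 1 when all 20878 genes above 0 in any of the 4 libraries were tested, and 195 when the L-LMSC libraries were left out. Without E-LMSC replicate 1 the paired fit called 6 genes and without E-LMSC replicate 2 it called 3, against 764 without M-LMSC replicate 1 and 855 without M-LMSC replicate 2. Of the 395 paired calls, 332 were kept without M-LMSC replicate 1 and 352 without M-LMSC replicate 2. The unpaired count moved from 7 to 3 and 2 without E-LMSC replicate 1 and 2, and to 97 and 100 without M-LMSC replicate 1 and 2. Of the 7 unpaired genes, Ftl2-ps alone was still called without E-LMSC replicate 1 or 2.

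The E-LMSC libraries were closer to each other (correlation across tested genes 0.991) than to M-LMSCs, where correlations between the stages ran from 0.966 to 0.978. The M-LMSC libraries, at 0.977, were no closer to each other than M-LMSC replicate 2 was to either E-LMSC library. The highest of these joined the libraries numbered 2. Genes are not independent replicates, and these coefficients only describe the libraries. The filter itself shaped the extremes: 228 tested genes had an E-LMSC mean under 1 FPKM and passed through their M-LMSC level, 42 of them paired calls, and 88 had an M-LMSC mean under 1, 10 of them paired calls. The genes nearest the minimum were Aldh1a7, just inside, and Armc9, just outside, both at a mean of 1.00 FPKM.

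**Figure D1:**
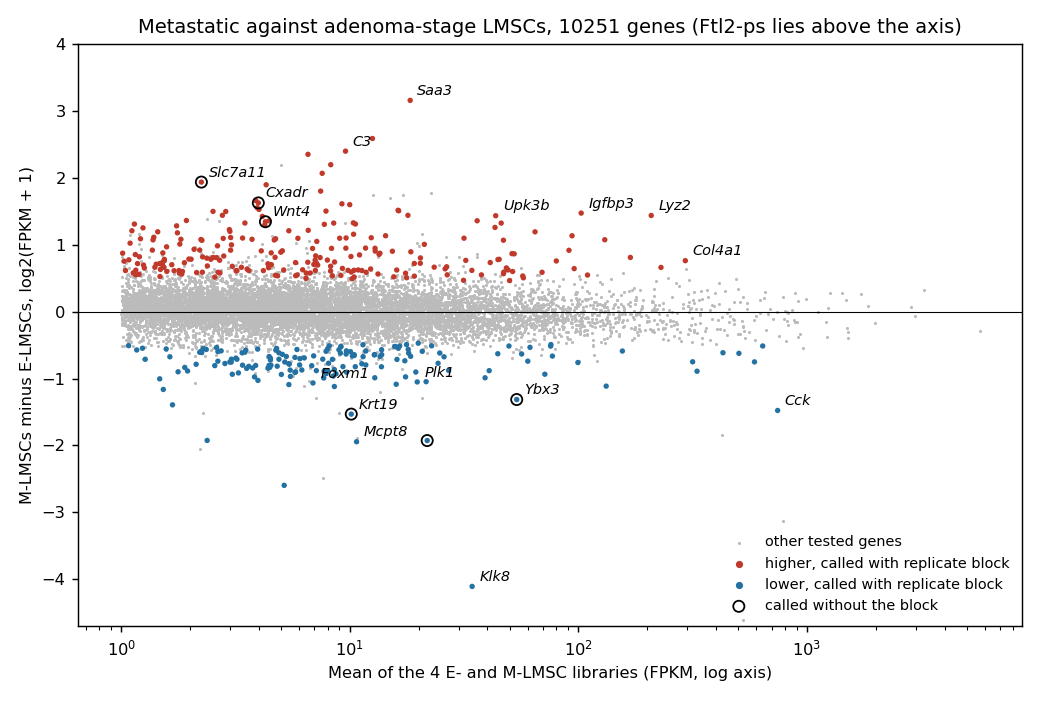
Difference between M-LMSCs and E-LMSCs, log2(FPKM + 1), against the mean FPKM of the 4 libraries on a log axis for the 10251 tested genes. Red and blue points are the 230 genes higher and 165 lower in the paired fit, and rings mark those of the 7 genes called without pairing that fit the axis.

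Division of a mammalian cell is run by a wave of genes switched on late in the cycle, among them the kinases Plk1 and Aurka, the spindle motors of the Kif family and the ubiquitin ligase activator Cdc20. Foxm1, a transcription factor that drives this wave, was measured at 9.44 and 9.92 FPKM in E-LMSCs against 3.73 and 4.5 in M-LMSCs, so that both M-LMSC libraries were below both E-LMSC libraries by more than the gap within either stage. It fell by 1.07 on the log2 scale (SE 0.13, adjusted p = 0.0184 paired and 0.0727 unpaired). Of 41 tested mitosis and spindle genes, 21 fell in the paired fit and 0 rose, and all 41 had both M-LMSC libraries below both E-LMSC libraries. Their median difference was -0.66, against 0.03 over all tested genes, with -0.75 for the libraries numbered 1 and -0.60 for those numbered 2. The number called was 18 without M-LMSC replicate 1, 33 without M-LMSC replicate 2, 0 without either E-LMSC library and 12 with the GC and length adjustment (median -0.70).

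Among the kinases and their partners, Plk1 fell by 1.05 (adjusted p = 0.0198 paired and 0.175 unpaired), with E-LMSC replicate 1 at 24.8 FPKM still above M-LMSC replicate 2 at 16.0 FPKM. Aurka, which matures the spindle poles, stood at 17.1 and 17.7 FPKM in E-LMSCs against 7.4 and 9.23 in M-LMSCs (log2 difference -0.99, adjusted p = 0.0171 paired). Its relative Aurkb and the other members of the chromosomal passenger complex fell as well. Aurkb went from 4.43 and 5.31 to 1.85 and 2.86 FPKM and survivin (Birc5) from 10.3 and 11 to 4.59 and 6.14. Borealin (Cdca8) went from 6.51 and 8.21 to 2.83 and 4.38 FPKM and Incenp from 16.3 and 17.4 to 9.32 and 11.2. The whole complex was thus measured lower, by -0.67 to -0.88 log2 units. Cdc20 went from 48.7 and 55.2 to 21 and 31.3 FPKM and Ube2c, the ubiquitin carrier it works with, from 26.5 and 24.7 to 11.7 and 14.9 FPKM. The spindle motors Kif20a (-0.77), Kif2c (-0.79), Kif11 (-0.59) and Kif23 (-0.55), the midzone proteins Prc1 (-0.72) and Racgap1 (-0.81), the centromere histone Cenpa (-0.80), the centrosome kinase Nek2 (-0.78), the checkpoint kinase Bub1 (-0.67) and Cdca3 (-0.75) fell with them. The cyclins were less even, as Ccna2 fell (9.23 and 8.22 to 4.62 and 5.71 FPKM) while Ccnb1 (2.43 and 3.98 against 1.95 and 2.19 FPKM), Cdk1 (-0.60, paired adjusted p = 0.0683) and Top2a (-0.53, 0.10) missed the threshold. Mki67, the proliferation marker Ki-67, was 4.82 and 3.53 FPKM in E-LMSCs against 2.24 and 2.11 in M-LMSCs (adjusted p = 0.0462 paired and 0.222 unpaired).

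Cyclin F (Ccnf), the substrate receptor of an SCF ubiquitin ligase that peaks in G2, and Pkmyt1, a kinase that holds Cdk1 inactive, were among the 15 largest falls of all genes called in the paired fit. Ccnf was 11.4 and 12.7 FPKM in E-LMSCs against 4.21 and 5.91 in M-LMSCs (log2 difference -1.12, adjusted p = 0.0165 paired), and Pkmyt1 was 7.41 and 7.9 FPKM in E-LMSCs against 2.25 and 4.08 in M-LMSCs (-1.09, adjusted p = 0.0208). Exons of Pkmyt1 overlap those of Paqr4 by 242 identical bases, so part of its value may belong to that neighbour. Plk1 (24.8 and 28.6 to 9.44 and 16 FPKM) was the most abundant of the mitotic kinases named here at either stage.

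DNA is copied from origins that are licensed by the Mcm helicase and fired by Cdc45 and the GINS complex. Mcm5 ran from 25.8 and 32.6 FPKM in E-LMSCs to 10.4 and 17.5 FPKM in M-LMSCs, and the stages did not overlap. It fell by 1.05 (adjusted p = 0.0185 paired and 0.141 unpaired), and Mcm2 (-0.63), Mcm3 (-0.80) and Mcm7 (-0.78) fell too. Cdc45 went from 7.3 and 8.38 to 3.46 and 4.01 FPKM and the GINS subunit Gins2 from 9.85 and 12.1 to 6.84 and 7.74 FPKM. The list of DNA replication and S-phase genes held 16 falls and no rise among 34 tested, 30 genes with both M-LMSC libraries below both E-LMSC libraries, and a median of -0.53. Falls also took in the chromatin assembly factor subunits Chaf1a (-0.82) and Chaf1b (-0.85), thymidine kinase Tk1 (-0.97), ribonucleotide reductase Rrm2 (-0.62), the flap nuclease Fen1 (-0.64), ligase Lig1 (-0.71), the single-strand binding protein Rpa2 (-0.57) and Uhrf1 (-0.91), which copies DNA methylation. Of the regulators that start S phase, E2f1 went from 13.8 and 14.9 to 8.7 and 9.66 FPKM and Ccne1 from 11.4 and 13.3 to 7.69 and 7.89 FPKM. Pcna (-0.40, paired adjusted p = 0.0876) missed the threshold, and the histone messenger RNA binding gene Slbp stood at 2.62 and 2.33 FPKM in E-LMSCs against 2.74 and 2.16 in M-LMSCs. The count was 14 without M-LMSC replicate 1, 23 without M-LMSC replicate 2, 0 without either E-LMSC library and 7 with the GC and length adjustment (median -0.50).

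Inhibitors of the cycle and targets of p53 leaned the other way. Cdkn2b, which encodes the p15 inhibitor of Cdk4 and Cdk6, was 38.6 and 33.3 FPKM in E-LMSCs against 72.7 and 60.3 in M-LMSCs, and Cdkn1b, which encodes p27, was 2.86 and 3.44 FPKM in E-LMSCs against 5.24 and 6.11 in M-LMSCs. They rose by 0.87 and 0.68 (adjusted p = 0.0266 and 0.0262 paired). Pmaip1 (Noxa), a p53 target that promotes apoptosis, rose too (4.26 and 3.0 against 7.15 and 4.49 FPKM; adjusted p = 0.0498 paired and 0.415 unpaired). Cdkn2a (37 and 36.5 against 48.8 and 59.2 FPKM) and Cdkn1a (170.3 and 159.7 against 201 and 213 FPKM) had higher M-LMSC values but missed the threshold (paired adjusted p = 0.0543 and 0.139). Mdm2 (0.37) and Bax (-0.37, the lowest) missed it as well. Of 21 tested genes of the list, 3 rose, 0 fell, 12 had non-overlapping higher and 2 non-overlapping lower values, and the median was 0.33. It counted 3 rises without M-LMSC replicate 1, 7 without M-LMSC replicate 2 and 0 without either E-LMSC library.

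Histone genes did not move with the replication genes. Of 27 tested clustered histone genes, 3 rose, 1 fell and 17 had both M-LMSC libraries above both E-LMSC libraries, with a median of 0.41. The calls upward were Hist1h2bc (75.5 and 73.4 against 127 and 108 FPKM), Hist2h3c2 (12.4 and 8.63 against 19.9 and 20.5 FPKM) and Hist1h3b (2.17 and 1.01 against 4.0 and 2.92 FPKM). Hist2h2aa2, which passed the filter through its E-LMSC level, fell from 4.91 and 3.68 to 0.916 and 0 FPKM. It shares 528 identical bases with other genes. The rises are no better placed: long matches in other genes are 100.0% identical for Hist2h3c2, 98.0% for Hist1h2bc and 95.4% for Hist1h3b. The near copy Hist2h2aa1 of the falling gene was listed at 0 and 30.6 FPKM in E-LMSCs and 0 in all other libraries, so values of all these genes are uncertain. Hist1h1c (0.41) and Hist1h4i (0.52) missed the threshold. Only 27 of 69 listed genes reached the minimum. Rises numbered 6 without M-LMSC replicate 1, 10 without M-LMSC replicate 2 and 0 without either E-LMSC library. Among the latter fits, the one without E-LMSC replicate 1 called Hist2h2aa1 lower.

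Genes called without pairing came from several pathways. Wnt4, a ligand that signals between mesenchyme and epithelium, measured 2.23 and 1.74 FPKM in E-LMSCs against 6.66 and 6.45 in M-LMSCs, so its M-LMSC libraries were 3.3-fold above E-LMSCs in the mean and close to each other. It rose by 1.34 (SE 0.13, adjusted p = 0.0415 without pairing and 0.0103 with it), and the L-LMSC libraries at 2.89 and 2.55 FPKM were near the E-LMSC level. Slc7a11, the cystine importer that feeds glutathione synthesis, was 0.37 and 0.284 FPKM in E-LMSCs against 3.25 and 5.06 in M-LMSCs (log2 difference 1.94, adjusted p = 0.0401 without pairing). It passed the filter through its M-LMSC level. Its L-LMSC values were 0.388 and 0.321 FPKM, so that the higher level was found at the metastatic stage alone among these libraries. Over 375 bases Slc7a11 is 96.0% identical to the locus Gm3756 and similar to tubulin genes, and its level is uncertain to that extent. Cxadr, a tight junction protein and virus receptor, rose from 1.58 and 1.3 to 6.19 and 6.85 FPKM (adjusted p = 0.020); its exons overlap the opposite-strand gene Btg3.

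Falls without pairing were Ybx3, Krt19 and Gm20431. Ybx3, a cold shock domain protein that binds messenger RNA and tight junctions, stood at 75.4 and 78.6 FPKM in E-LMSCs against 29.7 and 31.1 in M-LMSCs, and L-LMSCs at 55.3 and 61.8 FPKM were between the stages. It fell by 1.31 (SE 0.11, adjusted p = 0.0251 without pairing and 0.00848 with it). Krt19, an intermediate filament keratin of simple epithelia and mesothelium, went from 13.8 and 17.3 over 8.09 and 9.28 to 4.92 and 4.49 FPKM along the 3 stages (log2 difference -1.53, adjusted p = 0.0401 without pairing). Gm20431 went from 35.3 and 34.8 to 9.63 and 7.46 FPKM (adjusted p = 0.0181), but it shares its exons with Tmem189 and Ube2v1. The largest rise of all was that of the ferritin light chain copy Ftl2-ps, at 0.435 and 0.311 FPKM in E-LMSCs against 2123 and 1046 in M-LMSCs. It too passed the filter through its M-LMSC level. Over 573 bases it is 95.1% identical to Ftl1, which was lower (1344 and 1289 against 48 and 459 FPKM), so neither value can be assigned to its gene with certainty.

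Complement tags surfaces for uptake and calls in leukocytes, and stromal cells make several of its parts. C3, the central component, rose by 2.40 (E-LMSCs 2.19 and 2.3 FPKM, M-LMSCs 11.6 and 22.2 FPKM; adjusted p = 0.0103 paired) and was still called without E-LMSC replicate 1. C1s1, the classical pathway protease, was highest in the L-LMSC libraries (16.1 and 18.6 FPKM) and stood at 3.87 and 3.25 FPKM in E-LMSCs against 8.94 and 10.2 in M-LMSCs. It shares 2644 bases at 96.0% identity with C1s2. Cfp (properdin), which stabilises the C3 convertase, was 1.32 and 1.77 FPKM in E-LMSCs against 4.9 and 4.05 in M-LMSCs. Both M-LMSC libraries were again above both E-LMSC libraries for the receptor gene C3ar1 (0.546 and 0.518 against 2.3 and 2.14 FPKM) and clusterin (Clu; 7.83 and 9.4 against 16.1 and 38.5 FPKM). In all, 6 of 14 tested complement genes rose in the paired fit and none fell (12 non-overlapping higher, median 0.67). Of the 14, 4 had an E-LMSC mean under 1 FPKM and passed the filter through their M-LMSC level, 2 of them called. C1ra (0.39), C4b (0.65), Serping1 (0.13) and Masp1 (-0.44, the lowest) missed the threshold. The rises numbered 10 without M-LMSC replicate 1, 6 without M-LMSC replicate 2, 1 without E-LMSC replicate 1, 0 without E-LMSC replicate 2 and 4 with the GC and length adjustment (median 0.68).

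Saa3, an acute-phase apolipoprotein made by fibroblasts and macrophages, had the second largest rise of all genes (3.25 and 2.04 to 19.9 and 48.2 FPKM, L-LMSCs 15.7 and 6.99 FPKM; log2 difference 3.16, adjusted p = 0.0256 paired and 0.0867 unpaired). Ptx3, a soluble pattern recognition protein, rose from 17.2 and 8.82 to 26.3 and 21.6 FPKM. Of 5 tested acute-phase and innate secreted genes, 2 rose and 4 were non-overlapping higher (median 0.95, 0.44 for replicate 1 and 1.49 for replicate 2). Hp and Lbp had an E-LMSC mean under 1 FPKM and passed the filter through their M-LMSC level. Neither was called, but the median and the non-overlapping count are partly set by the filter. Hp (0.0714 and 0.34 against 0.45 and 3.9 FPKM), Lbp (0.884 and 0.979 against 1.07 and 3.29 FPKM) and Lcn2 (0.0197 and 0.047 against 0.0621 and 2.41 FPKM) were high in M-LMSC replicate 2 alone. Among chemokines, the monocyte attractants Ccl2 (18.5 and 10.3 against 28.6 and 19.2 FPKM), Ccl7 (51.1 and 24.6 against 80.4 and 53.3 FPKM) and Ccl9 (1.44 and 1.15 against 4.73 and 8.17 FPKM) rose. They were 3 of 9 tested, with 5 non-overlapping higher and a median of 0.41. For Ccl2 and Ccl7 the call needed the pairing, since E-LMSC replicate 1 and M-LMSC replicate 2 lay close together (adjusted p = 0.353 and 0.349 without pairing). Cxcl12 (1.87 and 1.18 against 1.83 and 2.86 FPKM) and Csf1 (-0.46, the lowest of the list) were not called, and Cxcl1 and Cxcl5 were below the minimum. With M-LMSC replicate 1 or 2 left out the acute-phase rises numbered 5 and 2 and the chemokine rises 5 and 4; without either E-LMSC library both were 0.

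Interleukins signal between leukocytes and stroma. Of 9 tested genes of interleukin-4 and interleukin-13 signalling 1 rose and none fell. The list as a whole had a median of 0.06, or -0.01 after quantile normalization, with Il4ra (0.34), Il13ra1 (0.37) and Stat6 (-0.32, the lowest) uncalled and Il13ra2 at 0.0234 FPKM in both M-LMSC libraries. In the interleukin-6 family Lif rose (7.49 and 9.37 against 11.3 and 13.7 FPKM), 1 of 10 tested (3 non-overlapping higher, median 0.21), while Il6 (0.47), Il6st (-0.05) and Stat3 (0.48) were not called. No NF-kB gene was called among 14 tested (5 non-overlapping higher, 4 lower), and the median of 0.03 became -0.04 with quantile normalization and -0.01 with centring. Its members ran from -0.30 for Nfkbiz to 0.46 for Icam1, with Nfkbia at -0.15, Tnfaip3 at -0.10, Rela at -0.18 and Nfkb1 at 0.04. In the fit without M-LMSC replicate 1 the interleukin-4 list held 4 rises and the interleukin-6 list 2 falls beside 1 rise, the NF-kB list held 1 rise, and without either E-LMSC library all 3 lists held none.

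Interferon-stimulated genes were mostly higher in M-LMSCs. Ifit1, which binds foreign RNA, was 0.885 and 1.33 FPKM in E-LMSCs against 2.39 and 3.72 in M-LMSCs. The ubiquitin-like modifier Isg15 was 8.57 and 9.52 FPKM in E-LMSCs against 13 and 23 in M-LMSCs and the immunity-related GTPase Irgm1 was 7.18 and 7.88 FPKM in E-LMSCs against 12.9 and 11.3 in M-LMSCs. These 3 of 16 tested genes rose, 12 were non-overlapping higher, none was called lower, and the median was 0.52 (0.24 for replicate 1, 0.64 for replicate 2). The count was 14 without M-LMSC replicate 1, 3 without M-LMSC replicate 2 and 0 without either E-LMSC library. Irf7 (0.42) and Ifit2 (0.22) missed the threshold. Of the 16 genes, 4 uncalled ones had an E-LMSC mean under 1 FPKM and passed the filter through their M-LMSC level. Of 10 tested class I antigen presentation genes none was called (4 non-overlapping higher, median 0.13). B2m was 303 and 309 FPKM in E-LMSCs against 330.2 and 433 in M-LMSCs, and log2 differences were 0.16 for H2-D1, 0.02 for H2-K1, 0.28 for Tap1, -0.16 for H2-Q4 and 0.34 for Erap1. H2 genes share long near-identical stretches, so their levels are uncertain. Most class II genes were near 0 at both stages, with Cd74 at 0.12 and 0.285 FPKM in E-LMSCs against 0.272 and 0.0602 in M-LMSCs and H2-Aa, H2-Ab1 and H2-Eb1 below the minimum. H2-DMa was the single tested member, at 3.31 and 3.19 FPKM in E-LMSCs against 3.37 and 2.54 in M-LMSCs (log2 difference -0.11, or 0.05 with the GC and length adjustment).

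Markers of macrophages were also higher in M-LMSCs. Their most abundant gene, the lysozyme gene Lyz2, was 115 and 106 FPKM in E-LMSCs against 362 and 249.7 in M-LMSCs (log2 difference 1.44, adjusted p = 0.0297 paired and 0.188 unpaired); it shares 1264 bases at 95.8% identity with Lyz1. The complement C1q chains C1qb (1.54 and 4.41 against 11.8 and 12.1 FPKM) and C1qc (1.27 and 1.91 against 6.3 and 6.53 FPKM) rose too. So did the pore-forming protein gene Mpeg1 (3.62 and 3.53 against 14.4 and 9.94 FPKM) and the lysosomal genes Ctss (4.0 and 3.85 against 14.6 and 8.49 FPKM) and Cd68 (5.85 and 6.44 against 9.83 and 12.2 FPKM). Surface markers that rose were Cd14 (5.13 and 4.76 against 8.23 and 10.1 FPKM) and Adgre1 (F4/80; 0.252 and 0.506 against 2.09 and 1.52 FPKM). In all, 8 of 11 tested macrophage genes rose and none fell (median 1.30), all 16 listed genes had both M-LMSC libraries above both E-LMSC libraries, and none was at 0 throughout. Of the 11, 2 had an E-LMSC mean under 1 FPKM and passed the filter through their M-LMSC level, 1 of them called. The summed level of the 16 was 144 and 144 FPKM in E-LMSCs, 186 and 81.7 FPKM in L-LMSCs and 457 and 338 FPKM in M-LMSCs. Csf1r, the receptor that defines the lineage, was 3.29 and 3.51 FPKM in E-LMSCs against 4.71 and 4.66 in M-LMSCs and not called (0.123 paired), and Mrc1 was 0.271 and 0.261 FPKM in E-LMSCs against 1.06 and 0.543 in M-LMSCs. The part of these transcripts in the higher Saa3, C3, Cfp, C3ar1 and Ccl9 was not tested, and in bulk RNA more cells of a type and more RNA per cell cannot be told apart. The rises numbered 10 without M-LMSC replicate 1, 10 without M-LMSC replicate 2, 0 without either E-LMSC library and 2 with the GC and length adjustment (median 1.25).

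General haematopoietic markers showed the same, although Ptprc stayed below 0.1 FPKM in every library. The tetraspanin Cd53, their most abundant gene, was 4.82 and 3.9 FPKM in E-LMSCs against 19.4 and 11.8 in M-LMSCs. Rises were also found for the adaptor Tyrobp (4.59 and 4.25 against 13.1 and 12.1 FPKM), its relative Fcer1g (1.02 and 0.676 against 4.29 and 4.09 FPKM) and Laptm5 (1.81 and 1.72 against 4.77 and 3.73 FPKM). Lcp1 (0.667 and 0.807 against 2.82 and 2.02 FPKM), the GTPase Rac2 (0.616 and 0.452 against 1.89 and 1.65 FPKM) and the integrin subunit Itgam (0.0799 and 0.468 against 2.45 and 1.46 FPKM) completed the calls. These 7 of 9 tested genes rose in the paired fit (median 0.97), and all 14 listed genes were non-overlapping higher. Of the 7, 4 (Fcer1g, Lcp1, Rac2 and Itgam) had an E-LMSC mean under 1 FPKM and passed the filter through their M-LMSC level, so the share called is partly set by the filter. Their summed level was 17.9 and 16.1 FPKM in E-LMSCs, 25.8 and 13.7 FPKM in L-LMSCs and 57.1 and 43.9 FPKM in M-LMSCs. L-LMSC sums were not above those of E-LMSCs in replicate 2. Itgb2 (0.52) missed the threshold and Coro1a was below the minimum. Itgam shares 3454 bases at 99.9% identity with the overlapping locus Gm49368, so its level is uncertain to that extent. The list held 9 rises without M-LMSC replicate 1, 7 without M-LMSC replicate 2 and 0 without either E-LMSC library. M-LMSC replicate 1 was the higher for 13 of the 14 genes. Wfdc17, a secreted protease inhibitor of activated macrophages and the third largest rise, followed this order at 2.25 and 3.11 FPKM in E-LMSCs against 30.6 and 14.2 in M-LMSCs. Its log2 difference was 2.59 (adjusted p = 0.0238 paired), and it was still called without E-LMSC replicate 2. Markers of neutrophils and lymphocytes were all below the minimum (0 of 11 tested; most abundant Nkg7). Their summed level was 0.653 and 0.978 FPKM in E-LMSCs, 1.17 and 0.836 FPKM in L-LMSCs and 1.8 and 1.61 FPKM in M-LMSCs, with S100a9, Cd3d and Ncr1 at 0, S100a8 at 0.246 and 0.674 FPKM, Mpo at 0.0126 and 0.025 FPKM and Elane at 0.0657 and 0.0655 FPKM in M-LMSCs.

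Mesothelial cells cover the lung surface and make keratins and uroplakins. Upk1b, the most abundant gene of their list, was 63.8 and 95 FPKM in E-LMSCs against 106 and 257 in M-LMSCs, and Upk3b, a surface uroplakin, was 15.6 and 27.4 FPKM in E-LMSCs against 34.2 and 96.7 in M-LMSCs. Replicate 2 was the higher library at either stage, so Upk3b was called with the pairing (log2 difference 1.43, adjusted p = 0.0185) and not without it (0.285). The transcription factor genes Wt1 (1.72 and 1.79 against 3.76 and 6.31 FPKM) and Bnc1 (5.0 and 5.67 against 10.5 and 14.9 FPKM) rose with them, as did Lrrn4 (15.5 and 22.3 against 33.1 and 73.3 FPKM) and Gpm6a (1.06 and 1.68 against 2.65 and 8.51 FPKM). The keratin genes Krt18 (2.5 and 3.1 against 5.87 and 10.2 FPKM) and Krt8 (0.824 and 2.41 against 2.91 and 10.4 FPKM) rose as well, while Msln (8.87 and 12.7 against 12.6 and 48.2 FPKM) missed the threshold. Krt8 has a near copy in Krt8-ps, of 941 bases at 98.6% identity. Of 13 tested genes, 8 rose and Krt19 alone fell, opposite to the keratin genes Krt8 and Krt18 (10 non-overlapping higher, 1 lower, median 1.10). The 14 listed genes added up to 147 and 209 FPKM in E-LMSCs, 343 and 482 FPKM in L-LMSCs and 238 and 568 FPKM in M-LMSCs, none was at 0 throughout, and their part in other rises was not tested. Rises numbered 11 without M-LMSC replicate 1, 8 without M-LMSC replicate 2, 0 without either E-LMSC library and 6 with the GC and length adjustment (median 1.21).

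Epithelial genes were low at both stages. Only 2 of 19 listed genes were tested. Spint2, a membrane protease inhibitor and the most abundant of them, rose (2.27 and 2.9 against 4.76 and 9.01 FPKM; adjusted p = 0.0222 paired and 0.155 unpaired), and the splicing factor gene Esrp2 did not (0.33). In all, 13 of the 19 had both M-LMSC libraries above both E-LMSC libraries, the summed level was 5.11 and 5.91 FPKM in E-LMSCs, 9.55 and 11.3 FPKM in L-LMSCs and 11 and 18.3 FPKM in M-LMSCs, and Elf3 was at 0. E-cadherin (Cdh1) was 0 and 0.0104 FPKM in E-LMSCs against 0.231 and 0.394 in M-LMSCs, Krt14 0.136 and 0.065 FPKM in E-LMSCs against 0.722 and 1.47 in M-LMSCs and Krt5 0.0219 and 0 FPKM in E-LMSCs against 0 and 0.0826 in M-LMSCs. Products of lung and mammary epithelium were all below the minimum (0 of 9 tested), with a summed level of 0.0619 and 1.23 FPKM in E-LMSCs, 0.421 and 0.15 FPKM in L-LMSCs and 0.621 and 1.51 FPKM in M-LMSCs. Sftpa1, Nkx2-1, Csn2 and Wap were at 0 in the 4 libraries, and Sftpc (0 and 1.07 against 0.301 and 0 FPKM) and Scgb1a1 (0 and 0.12 against 0 and 0.127 FPKM) were low. In the endothelial list 2 of 13 genes were tested, of which the VEGF receptor gene Kdr rose (1.11 and 1.17 against 2.23 and 2.31 FPKM) and Esam did not (0.32). Cdh5 and Tek were below the minimum, and the list summed to 3.26 and 3.82 FPKM in E-LMSCs, 4.59 and 5.45 FPKM in L-LMSCs and 4.36 and 5.85 FPKM in M-LMSCs. Of 6 tested pericyte and smooth muscle genes the proteoglycan Cspg4 (NG2) fell (13.4 and 14.1 against 6.22 and 8.59 FPKM; adjusted p = 0.0262 paired and 0.107 unpaired), for a median of 0.20. Mcam (0.46) and Notch3 (0.29) were not called, and Rgs5 was below the minimum. Without either E-LMSC library Spint2, Kdr and Cspg4 were not called.

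Collagen chains were mostly higher, 16 of 19 tested lying above 0, as did at least 5606 of all 10251 tested genes. Both M-LMSC libraries were above both E-LMSC libraries in 68.4% of the chains, against 27.2% of all tested genes. Col4a1 and Col4a2, the partner chains of basement membrane collagen IV, stood at 225 and 210.3 FPKM in E-LMSCs against 359.8 and 379 in M-LMSCs and at 184 and 172 FPKM in E-LMSCs against 269 and 295 in M-LMSCs, with both M-LMSC libraries above both E-LMSC libraries. They rose by 0.76 and 0.66 (adjusted p = 0.0208 and 0.0292 paired). Plod2, the lysyl hydroxylase that prepares collagen for cross-links, rose (40.8 and 36.3 against 58.5 and 61.3 FPKM), and so did P4ha3, a prolyl hydroxylase (6.01 and 4.72 against 9.85 and 7.68 FPKM). The fibril-associated Col12a1 (34.3 and 26.6 against 61.9 and 41.8 FPKM) and Col28a1 (1.96 and 1.22 against 4.75 and 2.5 FPKM) were higher and the microfibril chain Col6a3 was lower (11.1 and 11.3 against 7.43 and 6.5 FPKM). The main fibrillar chains were not called: Col1a1 was 1092 and 1103 FPKM in E-LMSCs against 808 and 1472 in M-LMSCs, Col1a2 0.10, Col3a1 0.64 and Col5a2 0.21. Col3a1 thus differed about as much as the called Col4a2, and networks were not tested against each other. Of 19 tested collagen chains 4 rose and 1 fell, 13 were non-overlapping higher, and the median was 0.32 (0.14 for replicate 1, 0.47 for replicate 2). Rises numbered 6 without M-LMSC replicate 1, 5 without M-LMSC replicate 2 and 0 without either E-LMSC library.

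Small leucine-rich proteoglycans, which space collagen fibrils, included a pair of calls. Lumican (Lum) rose (2.52 and 0.358 against 6.44 and 7.9 FPKM), and so did decorin (Dcn), by 1.13 to a mean M-LMSC level of 129 FPKM (adjusted p = 0.0262 paired and 0.0886 unpaired). Lum was still called without E-LMSC replicate 1. Ltbp1, which stores latent TGF-beta in the matrix, fell (19.2 and 21.3 against 12.1 and 11.7 FPKM). Of 32 tested matrix glycoprotein and elastic fibre genes 2 rose and 1 fell (14 non-overlapping higher, 4 lower, median 0.12). Fn1 (340.2 and 357 against 412 and 539.6 FPKM), Postn (0.60), Eln (0.36) and Tnc (149.9 and 125 against 254 and 87 FPKM) were not called. Tnc differed more between the M-LMSC libraries than between the stages. There were 6 and 6 rises without M-LMSC replicate 1 and 2, without E-LMSC replicate 1 there was 1 and without E-LMSC replicate 2 there was none.

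In the list of metalloproteinases and inhibitors, the gelatinase Mmp2 (60.5 and 61.5 against 86.7 and 155 FPKM) and macrophage elastase Mmp12 (0.516 and 0.66 against 4.53 and 2.0 FPKM) rose. Mmp12 passed the filter through its M-LMSC level. Adam8 (0.808 and 1.27 against 4.44 and 4.56 FPKM), Adam23 (4.09 and 2.37 against 7.02 and 4.66 FPKM) and Adamts12 (10.6 and 8.37 against 15.1 and 15.2 FPKM) rose as well. The collagenase Mmp13 fell (9.88 and 10.7 against 4.34 and 5.93 FPKM; adjusted p = 0.0467 paired). Together 5 of 33 tested genes rose and 1 fell (median 0.20). Both M-LMSC libraries were above both E-LMSC libraries in 10 (30.3%, against 27.2% of all tested genes). They were below both in 4 (12.1%, against 24.4%). The inhibitors Timp1 (0.03), Timp2 (-0.03) and Timp3 (0.17) and the membrane protease Mmp14 (0.33) were not called. Of 22 tested integrin and laminin subunits, Itga7 (2.83 and 3.37 against 4.74 and 9.0 FPKM) and the leukocyte subunit Itgam rose (11 non-overlapping higher, 2 lower, median 0.22). Itga11, a collagen receptor subunit, had the largest difference of that list, 1.77, but E-LMSC values of 18.2 and 4.44 FPKM were far apart (adjusted p = 0.0871 paired and 0.222 unpaired). Itga5 (-0.18), Itgb5 (0.12), Itga8 (-0.37) and Lamc1 (0.37) were not called. The protease list held 8 and 7 rises without M-LMSC replicate 1 and 2, the integrin list 7 and 3, and neither held a call without either E-LMSC library.

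In plasminogen activation and coagulation the protein C receptor gene Procr rose (6.81 and 7.73 against 10.8 and 11.2 FPKM), 1 of 13 tested (median 0.26, 5 non-overlapping higher, 3 lower). Calls were missed by Plat (0.47), Plau (0.07), Plaur (-0.34), Serpinb2 (0.73) and Thbd (-0.50). Serpins that rose were Serpina3n, an acute-phase inhibitor (38.8 and 36 against 58 and 60.8 FPKM), and Serpinb6b (14 and 10.7 against 23.1 and 16.3 FPKM), 2 of 17 tested (9 non-overlapping higher, median 0.20). Serpinh1 (-0.11), Serpinf1 (0.27) and Serpine2 (0.51) missed the threshold. Left without M-LMSC replicate 1 and 2, the first list held 2 and 4 rises and the serpins 3 and 5; without either E-LMSC library both held none.

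**Figure D2:**
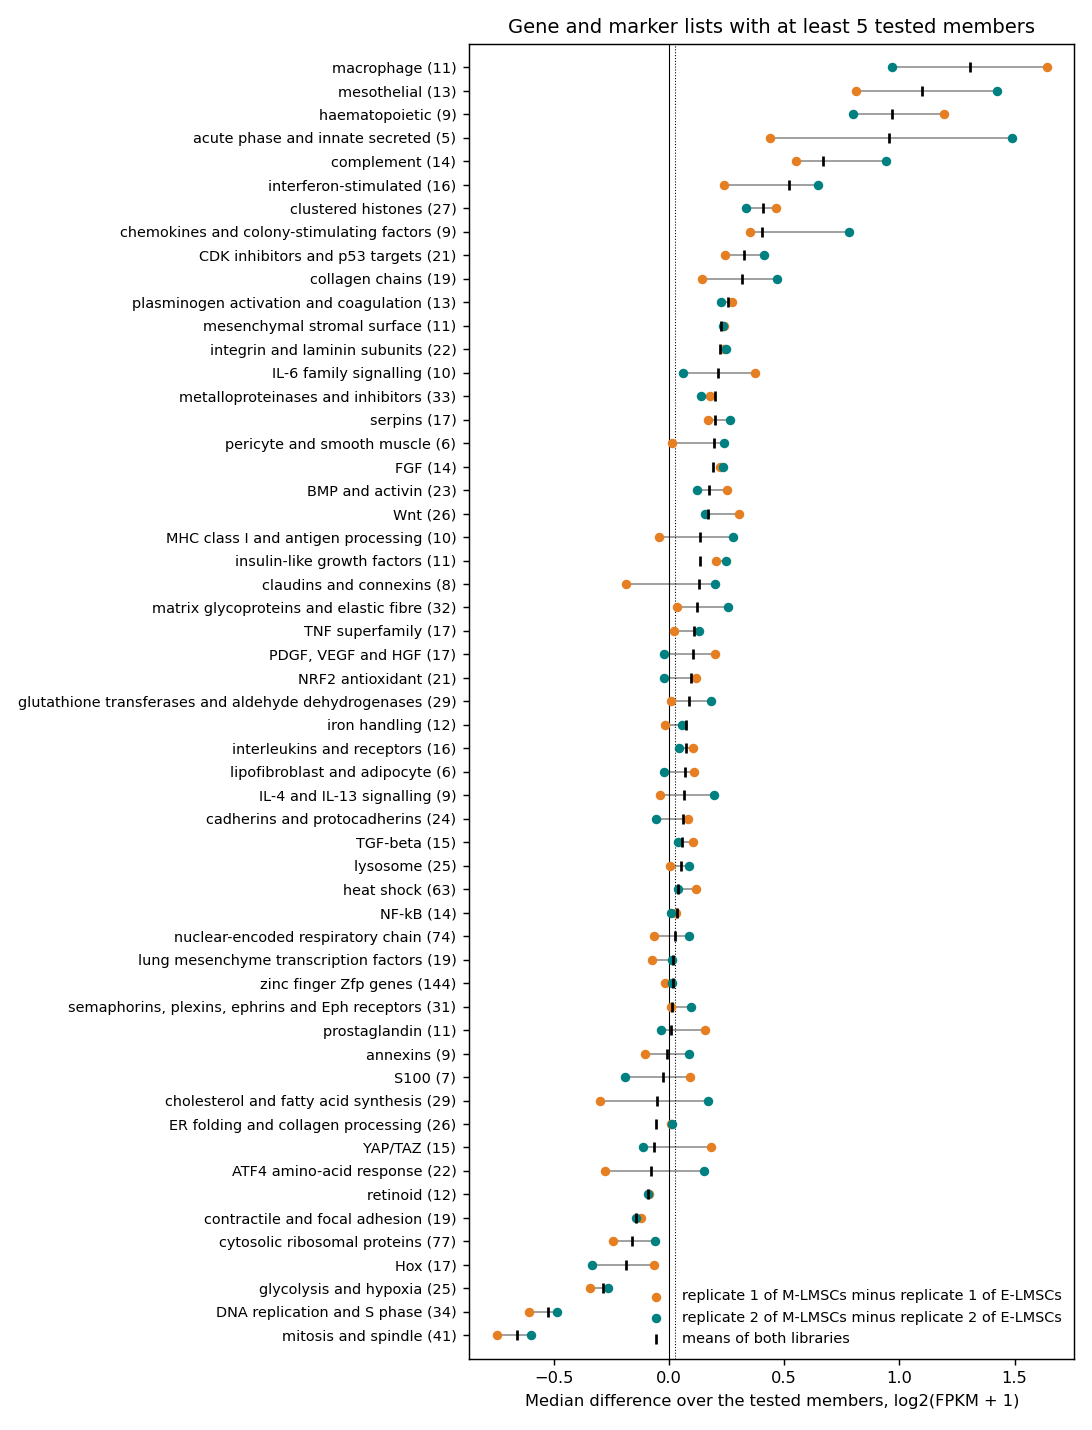
Median difference, log2(FPKM + 1), over the tested members of each gene or marker list with at least 5 tested members, whose number stands in brackets. Black ticks use stage means, orange and green points the libraries numbered 1 and 2, and the dotted line is the median of all tested genes at 0.03; mitosis and macrophage lists lie at the extremes with -0.66 and 1.30.

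Wnt signals keep progenitor states in lung mesenchyme, and their extracellular and intracellular brakes are as well known as the ligands. Beside Wnt4, the secreted antagonist gene Sfrp1 rose (65.6 and 53.1 against 108 and 93.3 FPKM; adjusted p = 0.0186 paired and 0.114 unpaired). So did Ror1 (5.29 and 5.26 against 9.91 and 8.47 FPKM), a receptor of non-canonical Wnt ligands, and Nkd2, an intracellular antagonist (2.71 and 2.31 against 6.86 and 4.51 FPKM). These 4 were the only calls among 26 tested Wnt genes (11 non-overlapping higher, 3 lower, median 0.17). Fzd2 (-0.22), Fzd7 (0.03), Fzd8 (-0.32, the lowest) and Rspo3 (0.09) were not called. There were 8 rises without M-LMSC replicate 1, 4 without M-LMSC replicate 2 and 0 without either E-LMSC library.

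Gdf6, a bone morphogenetic protein ligand, rose from 21.1 and 18.4 to 40.7 and 46.2 FPKM, with L-LMSCs near the M-LMSC level at 37.5 and 35.6 FPKM. The activin subunit gene Inhbb rose at a low level (1.31 and 0.806 against 2.37 and 1.84 FPKM), and Inhba did not (-0.06). They were the 2 calls of 23 tested BMP and activin genes (8 non-overlapping higher, 2 lower, median 0.17), where Bmp4 (0.35), Id1 (0.13) and Bambi (-0.44) missed the threshold. In the TGF-beta list Tgfbi, an adhesion protein induced by TGF-beta, was the single call (0.681 and 0.704 against 2.8 and 2.86 FPKM; adjusted p = 0.0185 paired and 0.0809 unpaired) of 15 tested (7 non-overlapping higher, 1 lower, median 0.05). Tgfbi passed the filter through its M-LMSC level. The ligand genes Tgfb1 (-0.07), Tgfb2 (0.44) and Tgfb3 (-0.01) and the anchor Lrrc32 (-0.31) were not called. Without M-LMSC replicate 2 the TGF-beta list held 3 rises, the BMP list held 3 without M-LMSC replicate 1 and 3 without M-LMSC replicate 2, and neither held any without either E-LMSC library.

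Binding proteins of insulin-like growth factors were among the abundant genes that rose. Igfbp3 was 50.6 and 51.3 FPKM in E-LMSCs against 96 and 213 in M-LMSCs, with M-LMSC replicate 2 more than double replicate 1, and Igfbp2 was 33.7 and 26.5 FPKM in E-LMSCs against 62.4 and 65.3 in M-LMSCs. Igfbp3 rose by 1.47 (adjusted p = 0.0301 paired and 0.134 unpaired) and Igfbp2 by 1.07 (adjusted p = 0.0175 paired and 0.0727 unpaired). The ligand gene Igf1 rose (5.1 and 4.23 against 8.7 and 6.83 FPKM), Igfbp5 did not (0.33), the IGFBP protease Pappa was lowest at -0.23, and Igf2 was below the minimum. The list gave 3 rises of 11 tested (5 non-overlapping higher, 1 lower, median 0.13), 5 without M-LMSC replicate 1, 3 without M-LMSC replicate 2 and 0 without either E-LMSC library.

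Fgf18, a mesenchymal ligand of alveolar growth, rose from 9.17 and 9.34 to 16.4 and 18.8 FPKM (adjusted p = 0.0238 paired) and was the only call of 14 tested FGF genes (5 non-overlapping higher, 1 lower, median 0.19). Fgf7 (0.11), Fgf10 (8.2 and 7.54 against 13.8 and 6.73 FPKM), Fgf2 (3.35 and 11.2 against 6.37 and 14.1 FPKM), Spry4 (0.33) and Fgfr1 (-0.23) were not called, and Fgf2 was higher in replicate 2 at both stages. Apart from Kdr no gene of the PDGF, VEGF and HGF list was called (17 tested, 4 non-overlapping higher, 3 lower, median 0.10), among them Pdgfrb (0.01), Vegfa (0.13) and Vegfb (-0.41), and Hgf was below the minimum. Tumour necrosis factor relatives gave 3 rises of 17 tested (8 non-overlapping higher, 3 lower, median 0.11). These were the decoy receptor osteoprotegerin (Tnfrsf11b; 8.36 and 6.77 against 19.5 and 12.3 FPKM) and the ligand genes Tnfsf8 (5.82 and 7.55 against 9.46 and 10.7 FPKM) and Tnfsf18 (0.697 and 0.525 against 1.73 and 1.23 FPKM). Tnfsf18 passed the filter through its M-LMSC level. Tnfrsf12a (440.4 and 492 against 342 and 326 FPKM) was lowest and missed the threshold (paired adjusted p = 0.0708), and Ltbr (-0.22), Tnfrsf1a (0.05) and Tnfsf15 (0.82) were not called. Il18 rose (1.34 and 2.08 against 2.71 and 4.64 FPKM), 1 of 16 tested interleukins and receptors (5 non-overlapping higher, 2 lower, median 0.07). Il33 was high in M-LMSC replicate 2 alone (0.265 and 0.348 against 0.495 and 3.67 FPKM), and Il1rl1 (-0.55), Il3ra (-0.21) and Il11ra1 (0.00) were uncalled. When M-LMSC replicate 1 and 2 were left out the FGF rises numbered 1 and 3, the tumour necrosis factor rises 1 and 5 and the interleukin rises 4 and 2; without either E-LMSC library none of these lists held a call.

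Most tested genes of glycolysis and the response to low oxygen were lower in M-LMSCs, and few were called. Slc16a3, the lactate exporter, was 49.4 and 56.3 FPKM in E-LMSCs against 23.5 and 33.6 in M-LMSCs (log2 difference -0.88, adjusted p = 0.0189 paired and 0.117 unpaired). The liver-type phosphofructokinase gene Pfkl (87.7 and 90.4 against 59.1 and 65.1 FPKM) and Egln3 (19.1 and 18.5 against 13.1 and 12.5 FPKM), a prolyl hydroxylase gene itself induced by low oxygen, fell too. These 3 of 25 tested genes fell and none rose, 17 were non-overlapping lower against 1 higher, and the median was -0.29. Glucose transporter Slc2a1 (68.8 and 69.2 against 50.2 and 51.6 FPKM) and Ldha (631 and 734 against 481 and 533 FPKM) had lower M-LMSC values but missed the threshold (paired adjusted p = 0.0585 and 0.0678). Pgk1 (-0.29), Hk2 (0.15) and Ldhb (27.5 and 23.2 against 36.4 and 56.4 FPKM) were not called. Falls numbered 2 without M-LMSC replicate 1, 5 without M-LMSC replicate 2, 0 without either E-LMSC library and 1 with the GC and length adjustment (median -0.18).

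Ribosomal protein genes held no call in 77 tested, yet 40 were non-overlapping lower and 6 higher (median -0.16, -0.24 for replicate 1 and -0.06 for replicate 2). Rpl13a was the lowest, at 1117 and 1148 FPKM in E-LMSCs against 672 and 901 in M-LMSCs (paired adjusted p = 0.0727), and Rpl22l1 the highest (0.24). Rplp1 (2065 and 2129 against 1760.2 and 1978 FPKM), Rpl8 (-0.38) and Rpsa (-0.34) lay between them. Without M-LMSC replicate 2 the paired fit called 8 of them lower, and without M-LMSC replicate 1 it called 1. Of 74 tested nuclear-encoded respiratory chain genes only Atp5s rose (1.52 and 1.5 against 2.65 and 2.88 FPKM), and the median of 0.03 was -0.02 with centring; 13 were non-overlapping higher and 10 lower. Ndufa4, the highest (0.69), and Atp5g2, the lowest (-0.24), were not called, nor were the abundant Cox8a (0.08), Atp5b (-0.13), Cox6b1 (0.04) and Cox6a1 (-0.06). Hmgcs1, which starts the branch to cholesterol, rose (26 and 26.4 against 37.1 and 36.2 FPKM; paired adjusted p = 0.0499) as 1 of 29 tested cholesterol and fatty acid genes. The list had 5 non-overlapping genes in either direction and a median of -0.05, but the medians of its replicates were opposite, -0.30 and 0.17. Fasn (-0.42) was not called. Hmgcs1 was not called when any of the 4 libraries was left out, 3 genes of its list were called lower without M-LMSC replicate 2, and Atp5s was not called without either E-LMSC library.

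Beside Slc7a11, the antioxidant genes that rose were Gsta4, which detoxifies lipid aldehydes (28.4 and 21.8 against 54.4 and 68.1 FPKM; adjusted p = 0.0189 paired and 0.0793 unpaired), and the microsomal transferase gene Mgst1 (7.26 and 7.65 against 14.7 and 20.0 FPKM). These were 3 of 21 tested NRF2 genes (8 non-overlapping higher, 4 lower, median 0.10), and Slc7a11 passed the filter through its M-LMSC level. The standard NRF2 targets Hmox1 (182 and 148 against 219.5 and 167 FPKM), Nqo1 (22.2 and 20.1 against 20.9 and 14.9 FPKM) and Gclm (0.17) and the lowest, Tkt (-0.32), were not called. In the wider set of glutathione transferases and aldehyde dehydrogenases Aldh1a1, a maker of retinoic acid (20.8 and 30.0 against 48.3 and 84.6 FPKM), and the mitochondrial Aldh6a1 (3.89 and 4.31 against 7.31 and 7.63 FPKM) rose as well. The set held 4 rises of 29 tested (10 non-overlapping higher, 2 lower, median 0.08). Gstp1 (-0.32), Gsto1 (0.17) and Mgst3 (-0.33) were not called. Aldh1a1 was also among the 2 rises of 12 tested retinoid genes, a list whose median of -0.09 became 0.01 with the GC and length adjustment. Aldh1a2 (103 and 131 against 80.7 and 115 FPKM), Rarb (-0.15) and Rarg (-0.41) were not called. Transferrin (Trf), which carries iron, rose (6.07 and 9.48 against 16.4 and 33.5 FPKM; adjusted p = 0.0105 paired and 0.158 unpaired), with 1517 identical bases in the overlapping locus Gm20425. It and Ftl2-ps were 2 of 12 tested iron genes (4 non-overlapping higher, 3 lower, median 0.07). Ferritin heavy chain Fth1 (1576 and 1551 against 1904 and 1842 FPKM) and Tfrc (-0.18) were uncalled and Slc40a1 was below the minimum. With M-LMSC replicate 1 left out the retinoid list held 4 rises and the transferase list 6, and without either E-LMSC library Ftl2-ps alone of these 4 lists was called.

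Nupr1, a chromatin protein of the amino acid stress response, rose (14.7 and 13.1 against 21.8 and 20.5 FPKM), 1 of 22 tested ATF4 genes (2 non-overlapping higher, 5 lower, median -0.08). The medians of the replicates were -0.28 and 0.15, and Chac1 (28.2 and 29.3 against 15.1 and 42.4 FPKM) and Trib3 (18.4 and 21 against 9.59 and 29.8 FPKM) were below E-LMSCs in replicate 1 and above them in replicate 2. Asns (-0.02), Ddit3 (0.47) and Shmt2 (-0.66) were not called. In the endoplasmic reticulum list P4ha3 and Plod2 were 2 rises of 26 tested (8 non-overlapping in either direction), with a median of -0.06 that was 0.04 after quantile normalization. Its members Hspa5 (-0.04), Hsp90b1 (0.05), Dnajb9 (0.36), Xbp1 (-0.15) and Manf (-0.46) were not called. Lipa, the lysosomal acid lipase, rose (14.6 and 15.6 against 26 and 25.1 FPKM; adjusted p = 0.0221 paired and 0.0835 unpaired), 1 of 25 tested lysosomal genes (8 non-overlapping higher, 5 lower, median 0.05). Ctsd (0.14), Ctsb (0.02), Lamp1 (-0.01), Ctsk (0.05) and Mcoln1 (-0.26) were not. With M-LMSC replicate 1 left out the ATF4 rises numbered 3, without M-LMSC replicate 2 its falls numbered 3 and the lysosomal rises 2, and without either E-LMSC library these lists held none.

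Genes of position and lineage held few calls. Of 17 tested Hox genes Hoxa7 fell (2.6 and 3.26 against 1.64 and 1.49 FPKM; paired adjusted p = 0.0462), 9 were non-overlapping lower and 3 higher, and the median was -0.19. Hoxa5 (45.9 and 48 against 41.8 and 36.2 FPKM), the Hox gene of lung development, Hoxa4 (-0.35), Hoxb4 (-0.02), Hoxb6 (-0.60) and Hoxc5 (0.55) were not called. None of 19 tested lung mesenchyme transcription factors was called (1 non-overlapping higher, 5 lower), with a median of 0.02 that was -0.04 after quantile normalization and -0.03 with centring. They ran from Twist2 (-0.76) to Gata6 (0.54), with Foxf1 at 20.3 and 18.3 FPKM in E-LMSCs against 19.4 and 16.9 in M-LMSCs, Tcf21 at 0.03 and Tbx4 at -0.50, and Gli1 was below the minimum. Without M-LMSC replicate 1 or 2, 3 of them were called. Hoxa7 was not called without M-LMSC replicate 2 or either E-LMSC library, and 5 Hox genes were called lower and 2 higher without M-LMSC replicate 1.

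Contractile and focal adhesion genes held no call of 19 tested (8 non-overlapping lower, 3 higher, median -0.14). The smooth muscle actin gene Acta2, the most abundant of them, was 6311 and 6214 FPKM in E-LMSCs against 5246 and 4986 in M-LMSCs. Tagln (0.07), Myl9 (-0.18) and Vcl (0.42) were uncalled, and Cnn1 (405 and 408 against 286 and 296 FPKM) was the lowest (paired adjusted p = 0.0513). The skeletal actin gene Acta1, which is outside that list, fell from 181 and 179.8 to 97.4 and 70.6 FPKM (adjusted p = 0.0184 paired and 0.0981 unpaired) and was among the 15 largest falls of the paired calls. YAP and TAZ genes held no call of 15 tested, among them Ctgf (0.04), Cyr61 (-0.07), Ankrd1 (-0.10), Yap1 (23 and 22 against 29.5 and 12 FPKM), Axl (-0.41) and Tead2 (0.59). Their median of -0.07 was 0.06 after quantile normalization and 0.05 with the GC and length adjustment. The lipofibroblast and adipocyte list (6 tested, median 0.07; Pparg -0.10, Fabp4 0.28, Lpl 0.51, Plin2 -0.31) and the bone and cartilage list (2 tested; Sox9 -0.14, Spp1 0.09; Runx2 and Alpl below the minimum; median -0.03) held none either. Without M-LMSC replicate 1 the YAP list held 1 rise and 2 falls and the contractile list 1 rise.

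Among junction genes the connexin gene Gja4 fell (1.11 and 1.76 against 0.466 and 0.966 FPKM; adjusted p = 0.0492 paired and 0.354 unpaired). Gja4 passed the filter through its E-LMSC level. In all 2 of 8 tested claudins and connexins fell and none rose (3 non-overlapping lower, 2 higher, median 0.13). Gja1 (0.38), Gjb5 (0.18), Cldn12 (0.12) and Cldn15 (0.47) were not called, and without either E-LMSC library none was. Families with no call had medians near 0 whose sign differed between scalings. These were 24 tested cadherins and protocadherins (0.06, -0.01 after quantile normalization; Cdh3 0.81 to Pcdhgc5 -0.47, past Cdh11 0.06, Cdh2 -0.17 and Pcdhgc3 -0.28) and 31 semaphorins, plexins, ephrins and Eph receptors (0.01, -0.04 with centring; Sema4b -0.42 to Sema7a 0.65). Others were 9 annexins (-0.01, 0.07 with the GC and length adjustment; Anxa2 -0.26 to Anxa1 0.36) and 7 S100 genes (-0.03, 0.11 after quantile normalization; S100a16 -0.24 to S100a1 0.40). Likewise 63 heat shock genes (0.04, -0.01 with centring; Hspb6 -0.65 to Dnajb4 0.53), 144 zinc finger Zfp genes (0.02, -0.04 after quantile normalization; Zfp768 -0.38 to Zfp36l1 0.59) and 11 prostaglandin genes (0.01, -0.04 with centring; Ptges -0.35 to Ptgis 0.49, with Ptgs2 at 70.5 and 56.7 against 103 and 32.4 FPKM) held no call. The families named here held at most 4 calls each without M-LMSC replicate 1, and at most 3 without M-LMSC replicate 2.

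Beyond the lists, several genes of secreted and surface proteins made up the extremes. Fam180a, a secreted protein of little known function, rose from 2.24 and 2.13 to 9.71 and 18.9 FPKM (adjusted p = 0.0156 paired and 0.0867 unpaired) and was still called without E-LMSC replicate 1. Angptl7, a secreted angiopoietin-like protein, was 1.27 and 2.2 FPKM in E-LMSCs against 4.46 and 22.4 in M-LMSCs, and Smpd3, the neutral sphingomyelinase of vesicle release, was 2.37 and 4.75 FPKM in E-LMSCs against 6.4 and 23.4 in M-LMSCs. Both were higher in replicate 2 at every stage, as the L-LMSC values of 5.46 and 10.9 and 10.3 and 20.1 FPKM show, and both were called in the paired fit alone (adjusted p = 0.0283 and 0.0219, against 0.234 and 0.286). Smpd3 shares 247 identical exon bases with Prmt7. Pop4, a subunit of ribonuclease P, rose from 1.35 and 1.57 to 8.04 and 4.76 FPKM. Without either E-LMSC library Angptl7, Smpd3 and Pop4 were not called.

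Several large falls had uneven M-LMSC libraries. Klk8, the serine protease neuropsin, was 62.1 and 63.8 FPKM in E-LMSCs against 0.146 and 11 in M-LMSCs, and Rbm15b, a splicing and RNA methylation cofactor, was 10.1 and 8.66 FPKM in E-LMSCs against 0.0252 and 1.86 in M-LMSCs. In both genes M-LMSC replicate 1 was close to 0 and replicate 2 was not, and the paired adjusted p were 0.0424 and 0.0396. Rbm15b passed the filter through its E-LMSC level. Exons of Klk8 overlap those of an opposite-strand gene by 382 bases, and L-LMSCs at 78.4 and 63.6 FPKM held the E-LMSC level, whereas Rbm15b was low in L-LMSCs already (1.89 and 0.543 FPKM). Mcpt8, a protease of basophils and the most abundant gene of the mast cell list, was 17.7 and 16.5 FPKM in E-LMSCs against 6.79 and 1.83 in M-LMSCs (log2 difference -1.94, adjusted p = 0.0262 paired and 0.126 unpaired). Its chromosome 14 neighbour Mcpt1 was 2.75 and 2.89 FPKM in E-LMSCs against 1.0 and 0.0587 in M-LMSCs, and it passed the filter through its E-LMSC level. Of 10 listed mast cell genes Mcpt8 alone was tested, and the summed level was 18.3 and 17.5 FPKM in E-LMSCs, 6.94 and 5.99 FPKM in L-LMSCs and 7.62 and 2.3 FPKM in M-LMSCs. Fcer1a was at 0 in the 4 libraries, and Cpa3 (0.0316 and 0.0377 against 0.0398 and 0.0397 FPKM), Kit (0.0629 and 0.0661 against 0.0327 and 0.0977 FPKM), Tpsb2 (0.0888 and 0.106 against 0.112 and 0.0558 FPKM) and Mcpt4 (0 and 0.0577 against 0 and 0 FPKM) were near 0. Without either E-LMSC library none of these genes was called.

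Cck, which encodes the peptide hormone cholecystokinin, was the most abundant gene among the 15 largest falls of the paired calls (1102 and 1043 against 573 and 258 FPKM; log2 difference -1.48, adjusted p = 0.0297 paired and 0.137 unpaired), and every M-LMSC value was below every E-LMSC and L-LMSC value. The neurotrophin gene Ntf3 fell from 2.56 and 2.4 to 0.332 and 0.813 FPKM, and it passed the filter through its E-LMSC level. The proliferin genes Prl2c2 (24.2 and 31 against 23.1 and 4.55 FPKM) and Prl2c3 (17.9 and 17.3 against 15.9 and 2.91 FPKM), 2 of 3 listed, were low in M-LMSC replicate 2 alone and not called. Their median was -1.25 (-0.12 in replicate 1 and -2.38 in replicate 2), both were called lower without M-LMSC replicate 1, and Prl2c3 without E-LMSC replicate 1. Prl2c5 was below the minimum, and the family is near identical in sequence. A single gene, Gm11096, was listed above 0.5 FPKM in both E-LMSC libraries (1.07 and 1.27 FPKM) and at 0 in both M-LMSC libraries, and no gene showed the reverse. Without either E-LMSC library Cck and Ntf3 were not called.

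**Figure D3:**
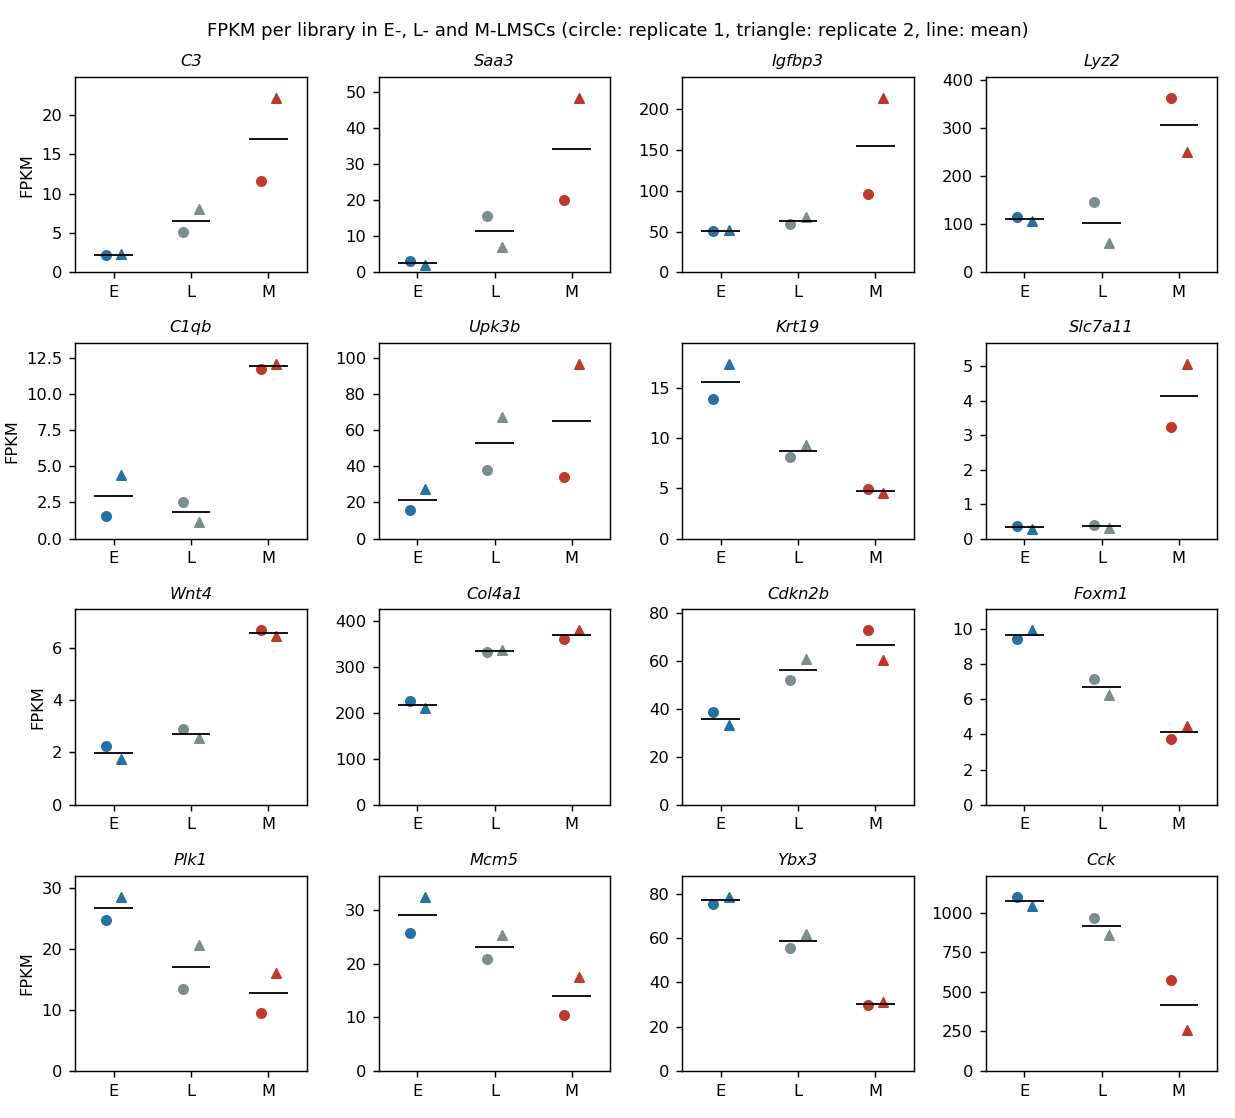
FPKM of 16 genes in each library of E-, L- and M-LMSCs, with circles for replicate 1, triangles for replicate 2 and a line at the mean; each panel has its own axis from 0. Slc7a11, Wnt4 and C1qb have their high values in M-LMSCs alone, while Foxm1, Plk1, Mcm5 and Krt19 step down over L-LMSCs.

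The L-LMSC libraries place the groups of genes along the course. These values share the E-LMSC libraries with the comparison above, so they are set side by side and not counted as further evidence. The median difference of L-LMSCs from E-LMSCs was -0.30 for mitosis and -0.24 for replication genes, part of the -0.66 and -0.53 of M-LMSCs. Glycolysis genes were at -0.27 against -0.29, and mesothelial genes at 1.15 against 1.10, so for these lists the L-LMSC medians were near the M-LMSC medians. For macrophage genes the L-LMSC median was -0.13 against 1.30, for haematopoietic genes -0.01 against 0.97, and for collagens -0.01 against 0.32. Complement (0.23 against 0.67) and interferon-stimulated genes (0.21 against 0.52) were between these. The difference between the stages' differences was not tested.

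Genes that fell and genes that rose in the paired fit differed in composition. The median GC content of exons was 54.5% in the 165 that fell, 49.5% in the 230 that rose and 50.3% in all tested genes, and the median exon length was 3402, 3552 and 4236.5 bases. Protein-coding genes made up 99.4%, 95.7% and 95.9%. By chromosome the share that rose ran from 0.620% on chromosome 5 to 3.87% on chromosome 12, and the share that fell from 0.521% on chromosome 13 to 3.08% on chromosome 17. Chromosome 7 carried Pop4 from base 38261996, Klk8 from base 43797577 and Saa3 from base 46711998 (GRCm38), among both the largest rises and the largest falls. Mcpt1 and Mcpt8 lie on chromosome 14, from bases 56017971 and 56082166.

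Promoter sequences from RefSeq (GRCm38.p6), 250 bases before to 50 after the start of transcription, were analysed for 20 of the 31 genes called without pairing or among the 15 largest rises and falls of the paired calls, 21 promoters in all. They were searched on both strands for a few motifs, each of which also occurs by chance, so the share over all 32851 promoters is given. Matches to the ATF4 motif TGATGNAA were in 3.97% of all promoters and, of the 21, in that of Slc7a11 alone, which had a pair of them. The cell cycle homology region, TTTGAA or TTCGAA, was in 19.2% of all and in 4 of the 21, those of Ccnf (a pair), Ccl9, Mcpt1 and Ntf3. The interferon response motif, GAAA and GAAA with 2 bases between, was in 3.44% of all and in Saa3. The AP-1 motif TGANTCA was in 7.81% of all and in Ccl9 and Fam180a. Shares were 1.63% for the NF-kB motif (GGG and TTTCC with 2 bases between), found in Ccl9, and 12.4% for the NRF2 motif TGACNNNGC, found in C1qb. The STAT6 motif (TTC and GAA with 4 bases between) was in 6.95% and in Cd53 and Ntf3. The STAT6 match of Ntf3 overlaps its cell cycle match. A match describes the letters of this window and is no evidence of binding.

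The promoters of Slc7a11 (chr3:50443564-50443863), Ccnf (chr17:24251360-24251659) and Saa3 (chr7:46715627-46715926), all on the minus strand and from RefSeq GRCm38.p6, are printed because these genes stand for the transporter, cell cycle and acute-phase changes above. They read 5′ to 3′ along the gene, and capitals mark the ATF4, cell cycle homology and interferon response matches in turn.
Slc7a11: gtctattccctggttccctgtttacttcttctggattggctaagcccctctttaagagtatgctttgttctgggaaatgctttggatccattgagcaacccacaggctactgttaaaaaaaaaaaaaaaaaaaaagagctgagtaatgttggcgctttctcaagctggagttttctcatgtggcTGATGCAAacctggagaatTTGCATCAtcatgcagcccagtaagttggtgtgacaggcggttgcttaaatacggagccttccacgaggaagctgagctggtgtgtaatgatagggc
Ccnf: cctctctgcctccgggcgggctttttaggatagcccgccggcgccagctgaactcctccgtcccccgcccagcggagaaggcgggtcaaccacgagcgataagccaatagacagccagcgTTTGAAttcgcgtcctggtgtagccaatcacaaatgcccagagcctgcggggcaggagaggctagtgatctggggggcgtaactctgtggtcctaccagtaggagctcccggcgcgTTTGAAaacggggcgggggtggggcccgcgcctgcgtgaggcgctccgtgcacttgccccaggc
Saa3: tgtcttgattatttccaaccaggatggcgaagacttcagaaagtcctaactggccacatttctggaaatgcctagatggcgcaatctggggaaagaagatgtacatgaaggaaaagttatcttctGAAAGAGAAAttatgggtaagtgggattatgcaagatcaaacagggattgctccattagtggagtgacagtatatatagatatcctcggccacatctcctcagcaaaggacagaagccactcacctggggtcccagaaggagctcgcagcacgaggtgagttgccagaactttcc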

How the data were processed

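The deposited table gave FPKM values per gene for 6 libraries, made by the authors; the labels name TopHat2 2.0.9 and TopHat on mm10, and the counting tool and annotation are not given in the sources used here. The table held no other per-sample columns. The third library of each stage is not in the table and was not analysed. Identifiers were matched to GENCODE M21 (34267 of 34745). Values were taken as log2(FPKM + 1), and genes averaging 1 FPKM or more in the E- and M-LMSC libraries were fitted with limma 3.58.1 (R 4.3.3, trended eBayes, a mean per stage over all 6 libraries), with Benjamini-Hochberg adjustment. A second fit added the replicate number as a block, since deviations from the stage mean correlated between same-numbered libraries above 0.1 in every pair of stages (0.235, 0.302 and 0.489 across genes). Libraries that vary along the same axis can give such correlations without being pairs. The check therefore cannot show that equal numbers belong together. The fit was tested on simulated data with equal noise in every gene and library. The planted changes were larger than the median paired rise (0.80) and fall (-0.72). That test does not measure how well changes of the observed size are called. Depth was the value at which low FPKM became whole fragments, within 0.1, for 96.8% to 97.1% of the low values. Near copies came from blastn 2.17.0 (at least 95% identity over 200 bases). Tables and plots used Python 3.11.15, numpy 2.4.6, pandas 2.3.3 and matplotlib 3.10.9. Alternatives were another pseudocount (0.1), no filter, quantile normalization, median centring, only the 4 libraries, each left out in turn, a log2 fold change of at least 1, and a lowess correction for GC content and exon length; those for the non-overlapping genes and the lists were chosen after seeing the data. Where an arm keeps 1 library, that library is assumed to vary like the others. Named genes were all called without pairing, the 15 largest rises and 15 largest falls of the paired calls, of each list the first 4 members (for a family pattern, the 4 most abundant), any called member and both extremes, and genes at 0 in 1 stage and at 0.5 FPKM or more in the other. Some genes that this rule names are not reported here. Aldh1a7 and Armc9 were chosen after their values were seen. Members and lists were chosen with earlier results of these data known.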

Additional observations from a re-analysis of the deposited data

How the results depend on the processing

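Of 4620 values for 385 tested named genes over 12 settings, 4022 kept their direction and their side of the threshold, 416 gained a call, 25 lost one and none of the called values changed sign; 157 uncalled values did. The sign of 86 genes changed in at least 1 setting, none of them among the 31 called without pairing or with the largest paired changes. Medians of 23 of 61 lists changed sign, the largest of them 0.13 in size. The unpaired count of 7 became 3 without the filter (20878 genes), 1 with only the 4 libraries (fewer samples), 395 with the replicate block, 195 with the block and only the 4 libraries, 242 with the block and the GC and length correction, and 2 to 100 when leaving out 1 library. The count with the replicate block, 395, became 1 without the filter, 195 with only the 4 libraries, 95 at an absolute log2 fold change of at least 1, and 3 to 855 when leaving out 1 library. The 5288 non-overlapping genes became 8832 of 20878 without the filter. The cause was not tested, and the block changed no other call than those counted here. At these depths values far below 1 FPKM rest on few fragments.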
